A study of Mus musculus with 9 samples.

Results

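Dendritic cells (DCs) are antigen-presenting cells whose branches are set by a small group of transcription factors, and 10 of these factors were examined: Irf4, Irf8, Batf3, Id2, Zbtb46, Klf4, Zeb2, Spi1, Ikzf1 and Nfil3. They were chosen by symbol, through the array probes annotated with a single gene. Of the 10 symbols, 9 were measured among the 22180 genes tested, on 10 probes (Irf8 had 2, of which the brighter was used). Zeb2 was listed only on 2 probes that also carry the name of another gene. It was left out of the comparison and of the counts below, and the values of the 2 probes are given at the end. RNA came from DCs positive for CD11c and MHC class II, sorted from the spleens of naive mice on a C57BL/6 background and measured on 9 arrays, 1 per sample. The 6 controls are labelled C/EBPβ+/+ and the 3 knockouts C/EBPβ-/-. In the knockouts, from CD11c-Cre x C/EBPβflox/flox mice, a Cre recombinase under the CD11c promoter deletes the loxP-flanked gene of the transcription factor C/EBPβ. The design text gives CD11c-Cre-eGFP mice as the source of the controls, while the protocols also name C57BL/6 mice without Cre, and the labels do not tie a control to either. Neither the age of the mice nor their number per sample is given, and the replicates may be technical, in which case the p-values cover technical spread alone. The question posed by the design is what C/EBPβ does for DC maturation and fate without infection or tumour.

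Conventional DCs of the spleen fall into a cDC1 branch, specialised in cross-presentation, and a cDC2 branch, which primes helper T cells. IRF8, BATF3, ID2 and NFIL3 are needed for cDC1, IRF4 and KLF4 act in cDC2, ZEB2 opposes cDC1 and favours cDC2, plasmacytoid DCs and monocytes, ZBTB46 marks committed conventional DCs, and PU.1 (Spi1) and IKAROS (Ikzf1) act earlier, in blood progenitors as well as in DCs. NFIL3 is a basic leucine zipper repressor, a structural relative of the C/EBP proteins whose DNA sites overlap with theirs.

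Cebpb, the deleted gene, differed by -1.35 on the log2 scale (SE 0.11, limma's adjusted p = 0.00074), and each knockout lay below every control. The array medians lay between 5.49 and 5.56. The DC label was compared with DC markers. The sort itself used CD11c and MHC class II, so the levels of these genes do not test the label. The list also holds the factor Zbtb46. The mean of 8 measured markers, among them Itgax (CD11c), Flt3 and 3 MHC class II genes, was 11.9 to 12.0 in the controls and 11.9 to 12.0 in the knockouts, and none of the 8 passed the test. At an unadjusted p under 0.05, Ccr7 was higher (0.41) and Kmo lower (-0.21) in the knockout, where 14.3% of all genes had such a p. Of lists for other cells, the mean level over the list was higher in every knockout than in every control for monocytes (8.69 to 8.89 against 8.22 to 8.52, 2 of 15 genes past the test) and plasma cells (7.55 to 7.73 against 7.04 to 7.30, 3 of 8). Over all genes, 0.415% passed with a higher mean in the knockout. At an unadjusted p under 0.05, 8 of the 15 monocyte and 5 of the 8 plasma cell genes were higher, against 5.5% of all genes. The groups overlapped for red pulp macrophages (8.44 to 8.94 against 7.65 to 8.78, 0 of 16, or 10 higher at an unadjusted p under 0.05), B cells (7.20 to 8.06 against 7.28 to 7.48, 0 of 13), plasmacytoid DCs (7.50 to 7.91 against 7.42 to 7.69, 0 of 13), NK cells (5.41 to 5.62 against 5.42 to 5.55, 0 of 9), T cells, neutrophils and erythroid cells. At that p, the B cell, plasmacytoid DC and erythroid lists had 2 higher genes each. The NK cell and neutrophil lists had 1 higher gene each, and the T cell list had 0 higher and 1 lower. In bulk RNA, fewer cells of a type and less RNA per cell cannot be told apart. Levels are log2 intensities and were not compared between genes, since probes differ in brightness.

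None of the 9 measured factors changed past the threshold, an adjusted p of 0.05 by limma over all 22180 genes. This count of 0 stands against 0.906% of all genes (201), or 0.415% higher (92) and 0.491% lower (109) in the knockout. At an unadjusted p under 0.05 there were 2 factors, Nfil3 and Klf4, both with a higher mean in the knockout, against 14.3% of all genes in either direction and 5.5% with a higher mean. The median change of the 9 was -0.024, against -0.014 over all genes, and 4 factors had a positive and 5 a negative change. In 1 factor, Nfil3, the groups did not overlap, with every knockout above every control, as was so for 2.52% of all genes (7.39% in either direction). The smallest absolute change among the genes that passed was 0.28, and the changes of 7 of the 9 factors were below that size. It is not a limit of detection, as it was taken from genes that passed. In simulated data with each gene's residual spread, 43 of 67 genes changed by 0.5 passed in the right direction (64.2%). The median SD over the controls was 0.076 for the 9 factors and 0.12 over all genes.

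**Figure D1:**
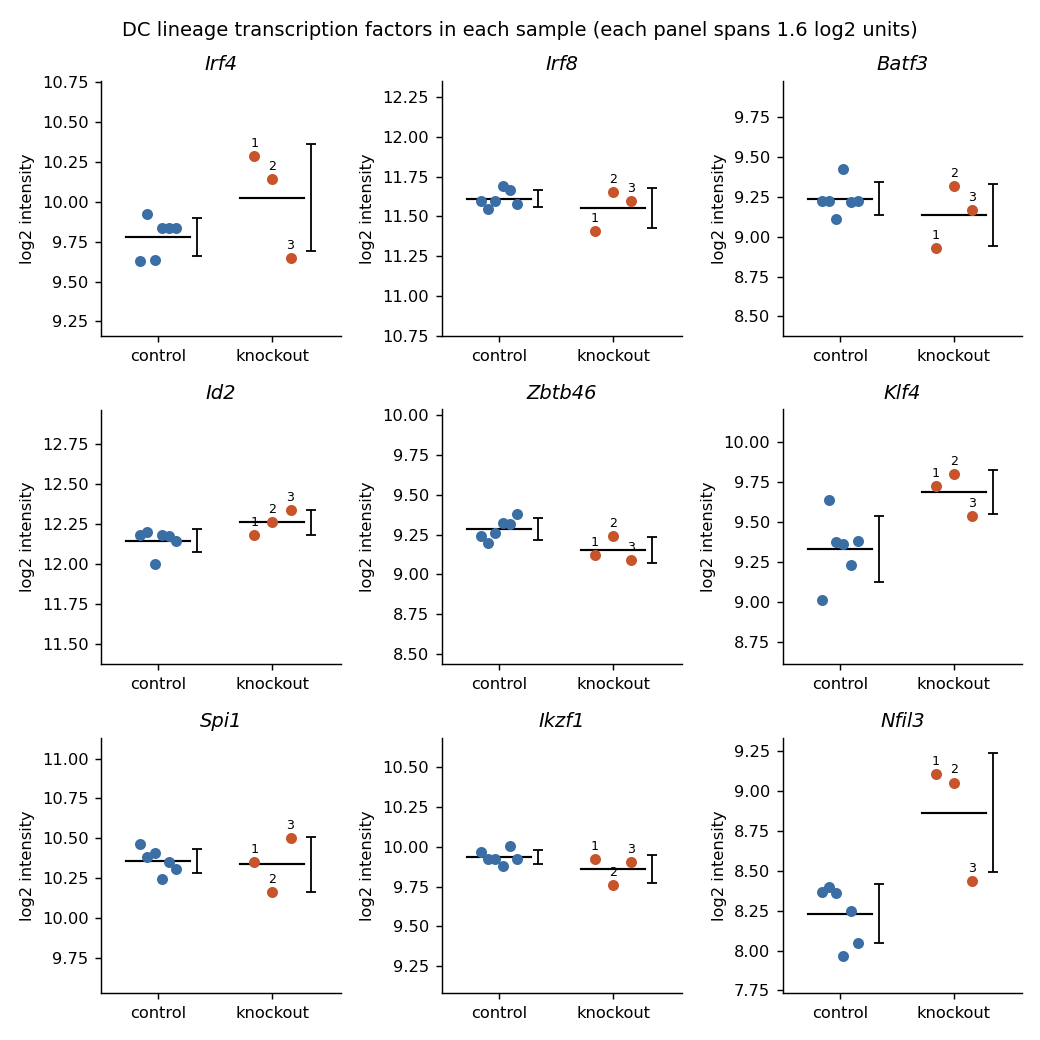
Log2 intensity of each of the 9 measured factors in the 6 controls (blue) and 3 knockouts (orange, numbered by replicate). Bars are group means and whiskers are 1 SD; every panel spans the same 1.6 log2 units. Nfil3 is the panel in which every knockout lies above every control.

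Nfil3 was the factor with the largest difference. Its log2 intensity in control replicates 1 to 6 was 8.37, 8.40, 8.36, 7.96, 8.25 and 8.05, and in knockout replicates 1 to 3 it was 9.11, 9.05 and 8.44. Knockouts 1 and 2 stood clear of the controls, while knockout 3 lay just above the highest control. The mean was 8.23 ± 0.18 (SD, n = 6) in controls and 8.87 ± 0.37 (SD, n = 3) in knockouts, a 1.55-fold difference. The log2 change of 0.63 had an SE of 0.15 and a 95% confidence interval from 0.30 to 0.97. It did not pass, at an adjusted p = 0.085 by limma. The call turned on knockout 3: without it the change was 0.85 with limma's adjusted p = 0.018, in a fit where 0.821% of all genes passed. It also passed in 2 other fits, with array weights and when genes below the median signal were left out, where 2.94% and 4.84% of all genes passed, and over all alternatives the adjusted p ran from 0.016 to 0.45.

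Lists of monocyte and red pulp macrophage markers also had higher group means in the knockout. The mean over the monocyte list, as a difference from the control mean, was 0.29, 0.36 and 0.49 in knockouts 1 to 3, and that over the red pulp macrophage list was 0.24, 0.74 and 0.66. Nfil3 on the same scale was 0.87, 0.82 and 0.20. Knockout 3, with the smallest Nfil3 difference, also had the highest mean of the B cell list, at 0.71 against 0.14 and -0.15 in knockouts 1 and 2. Control 2, with the red pulp list at 0.58 and the monocyte list at 0.13, had the highest Nfil3 value of the controls, 0.17 above their mean. Control 3, with the lowest red pulp (-0.55) and monocyte (-0.18) lists of the controls, had Nfil3 at 8.36, close to control 2. No marker in these lists is at 0 on this scale. The part of these cells in the Nfil3 values was not tested.

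**Figure D2:**
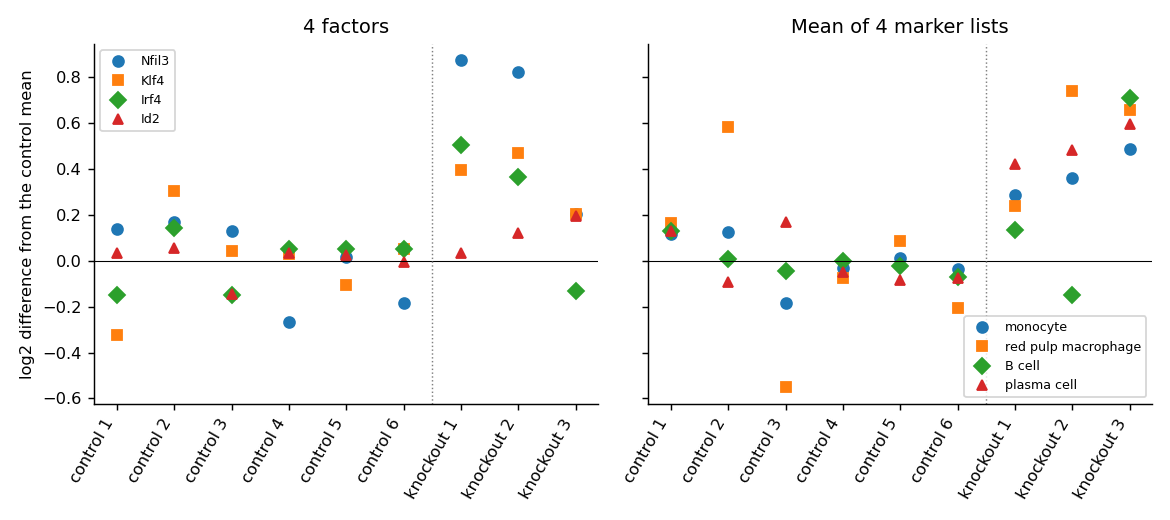
Difference from the control mean, in log2 units, in each of the 9 samples. The left panel shows Nfil3, Klf4, Irf4 and Id2; the right panel shows the mean over the monocyte, red pulp macrophage, B cell and plasma cell lists. Nfil3 is highest in knockouts 1 and 2 (0.87 and 0.82) and the B cell list in knockout 3 (0.71).

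The upstream sequence of 3 factors is shown because Nfil3 and Klf4 differed most upward and Zbtb46 most downward. Each is the 250 bases before the RefSeq gene start in GRCm38.p6, on the minus strand, written 5′ to 3′ with motif matches in capitals; Nfil3 is at chr13:52981040-52981289, Klf4 at chr4:55532476-55532725 and Zbtb46 at chr2:181424389-181424638.
Nfil3: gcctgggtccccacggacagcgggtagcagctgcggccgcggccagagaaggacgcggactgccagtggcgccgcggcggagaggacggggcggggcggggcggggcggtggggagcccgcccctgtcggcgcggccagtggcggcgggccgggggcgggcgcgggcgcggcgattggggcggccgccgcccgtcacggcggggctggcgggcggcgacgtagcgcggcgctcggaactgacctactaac
Klf4: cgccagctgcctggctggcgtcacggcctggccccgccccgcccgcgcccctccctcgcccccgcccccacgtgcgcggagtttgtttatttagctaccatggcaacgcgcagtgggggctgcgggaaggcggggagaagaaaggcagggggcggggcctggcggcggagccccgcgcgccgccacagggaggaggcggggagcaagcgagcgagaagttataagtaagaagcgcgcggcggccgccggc
Zbtb46: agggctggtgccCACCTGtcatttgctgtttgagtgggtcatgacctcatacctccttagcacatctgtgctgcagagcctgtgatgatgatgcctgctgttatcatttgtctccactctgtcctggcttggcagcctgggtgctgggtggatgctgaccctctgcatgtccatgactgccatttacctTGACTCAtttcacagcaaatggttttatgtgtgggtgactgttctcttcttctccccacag
Windows from 250 bases before to 50 after the start were searched on both strands for TTGCNNAA (C/EBP), GGAA, any 2 bases and GAAA (the composite site of PU.1 and an IRF), TGANTCA (AP-1 and BATF), CACCTG (the ZEB E-box) and TTANNTAA (NFIL3), none of which contains another. RefSeq windows were matched for 8 of the 9 factors, 10 windows in all, since Irf8 and Ikzf1 have 2 starts each. The C/EBP letters were in 0 of the 10 windows, and in 10.8% of all 32851 windows. TGANTCA was found in Zbtb46, at bases -61 to -55 from the start (7.81% of all windows). CACCTG was found in Zbtb46, at -238 to -233, and at the second start of Irf8, at -205 to -200 (20.2% of all windows). The composite and NFIL3 letters were in none of the 10, against 2.72% and 6.0% of all windows. In the sequences printed, Nfil3 and Klf4 thus hold no capitals, and the pair of capital stretches in Zbtb46 are the ZEB E-box and the AP-1 site. A match is a description of letters, and distal enhancers were not searched. The Zbtb46 window ends in ttctccccacag, letters of the kind that end an intron. Whether the annotated starts are those used in these DCs was not tested.

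The factors of the cDC2 branch, Klf4 and Irf4, had higher means in the knockout without passing the test. Klf4, a zinc finger factor of cDC2 and monocytes, measured 9.01, 9.64, 9.38, 9.36, 9.23 and 9.38 in controls 1 to 6 and 9.73, 9.80 and 9.54 in knockouts 1 to 3. Knockouts 1 and 2 lay above every control, and knockout 3 lay below control 2. The change was 0.36 (SE 0.12, interval 0.10 to 0.62), 1.28-fold, with limma's adjusted p = 0.19. The control range of Klf4, 0.63, was the widest of the 9 factors. Control 2 was the highest control in Klf4 and in the red pulp macrophage list. Control 1, the lowest in Klf4, had that list 0.16 above the control mean. Control 3, the lowest in that list (-0.55), had Klf4 at 9.38. The part of these cells in the Klf4 values was not tested.

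Irf4, an interferon regulatory factor of cDC2 that is also high in plasma cells, measured 9.63, 9.92, 9.63, 9.83, 9.83 and 9.83 in the controls and 10.29, 10.14 and 9.65 in the knockouts. Knockouts 1 and 2 were above every control, while knockout 3 lay within them, below their median of 9.83. The change was 0.25 (SE 0.13, interval -0.034 to 0.52) with limma's adjusted p = 0.43. It was 0.43 without knockout 3 (adjusted p = 0.074 by limma) and 0.12 without knockout 1. The plasma cell list was highest in knockout 3, at 0.59 above the control mean against 0.42 and 0.48 in knockouts 1 and 2, and of its genes Prdm1, Tent5c and Jchain rose. The part of plasma cells in the Irf4 values was not tested.

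Irf8, Batf3 and Id2, the cDC1 factors besides Nfil3, did not pass the test. Irf8, a factor of cDC1 and plasmacytoid DCs, measured 11.59, 11.54, 11.60, 11.69, 11.66 and 11.58 in the controls and 11.41, 11.65 and 11.60 in the knockouts. Knockout 1 was below every control and the other two were within them. The change was -0.059 (SE 0.067, interval -0.21 to 0.088, limma's adjusted p = 0.76), and the dimmer Irf8 probe differed by -0.065.

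Batf3, the partner of IRF8 that sustains its expression in cDC1, followed the same sample: it was 8.93 in knockout 1, below every control, and 9.32 and 9.17 in knockouts 2 and 3. The controls were 9.23, 9.23, 9.11, 9.43, 9.22 and 9.23. The change was -0.10 (SE 0.091, interval -0.30 to 0.098, limma's adjusted p = 0.68), and without knockout 1 it was 0.0023. Id2, which blocks E proteins and so holds off the plasmacytoid fate, measured 12.18, 12.20, 12.00, 12.18, 12.17 and 12.14 in the controls and 12.18, 12.26 and 12.34 in the knockouts. Knockouts 2 and 3 were above every control, with a change of 0.12 (SE 0.064, interval -0.026 to 0.26, limma's adjusted p = 0.46).

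Zbtb46, the zinc finger factor of committed conventional DCs, was at 9.24, 9.20, 9.26, 9.32, 9.32 and 9.38 in the controls and 9.12, 9.24 and 9.09 in the knockouts. Knockouts 1 and 3 were below every control, and knockout 2 was within them. The change was -0.13 (SE 0.062, interval -0.27 to 0.0033, limma's adjusted p = 0.36), and all 3 knockouts lay below the control mean. Zbtb46 and Spi1 lie on chromosome 2, as does Cebpb, by the RefSeq gene table.

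The early factors did not pass the test either. Spi1, which encodes PU.1, was 10.46, 10.39, 10.41, 10.25, 10.35 and 10.31 in the controls and 10.35, 10.16 and 10.50 in the knockouts, so that knockout 2 lay below and knockout 3 above every control. The change was -0.024 (SE 0.079, interval -0.20 to 0.15, limma's adjusted p = 0.93). Ikzf1, which encodes IKAROS, was 9.97, 9.92, 9.92, 9.88, 10.00 and 9.92 in the controls and 9.92, 9.76 and 9.90 in the knockouts. Knockout 2 alone was below the controls, and the change was -0.074 (SE 0.058, interval -0.20 to 0.054, limma's adjusted p = 0.63). Of all 9 factors, Ikzf1 had the smallest SD over the arrays (0.067). Among Irf8, Batf3, Id2, Zbtb46, Spi1 and Ikzf1, the bound farthest from 0 was the -0.30 of Batf3, so that larger changes of these means lie outside the intervals.

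**Figure D3:**
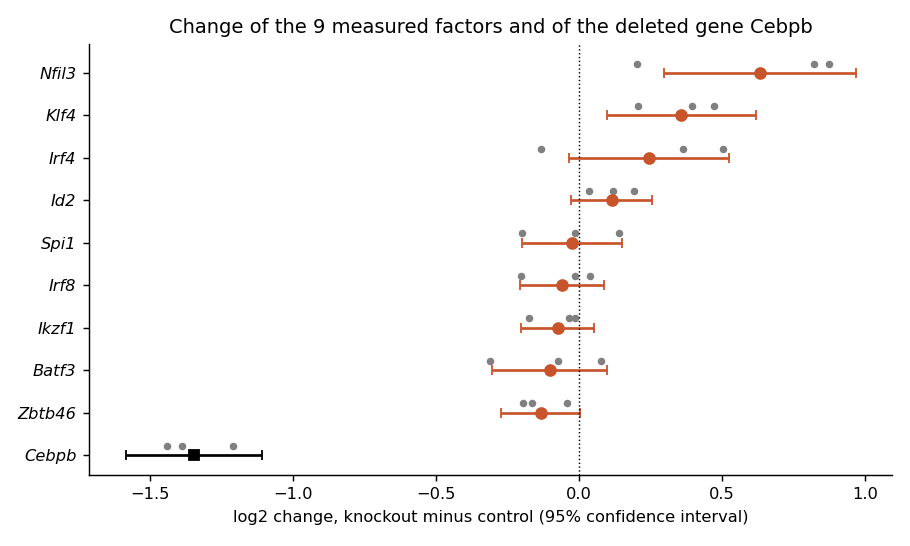
Log2 change (knockout minus control) of the 9 factors (circles) and of Cebpb (square), with limma's 95% confidence interval. Grey points are the 3 knockouts minus the control mean. The interval of Nfil3 runs from 0.30 to 0.97 and that of Cebpb from -1.58 to -1.11.

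Seen by sample, the highest and lowest values of these factors fell in different knockouts. Knockout 1 had the highest Irf4 and Nfil3 of the 9 arrays and the lowest Irf8 and Batf3. Knockout 2 had the highest Klf4 and the lowest Spi1 and Ikzf1. Knockout 3 had the highest Id2 and Spi1 and the lowest Zbtb46, and its Irf4 was 0.13 below the control mean. The range over the 3 knockouts exceeded that over the 6 controls in 6 of the 9 factors: 0.64 against 0.29 for Irf4, 0.67 against 0.44 for Nfil3, 0.34 against 0.22 for Spi1, 0.24 against 0.15 for Irf8, 0.39 against 0.32 for Batf3 and 0.16 against 0.12 for Ikzf1. The share of all genes with a wider range in the knockouts was not computed, so this cannot be called particular to these factors.

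Among 43 measured partners, a list of other regulators of DC development, 2 rose and 0 fell, with a median change of 0.075 (0.415% of all genes rose and 0.491% fell). This list and those below were chosen with earlier results of these data known. Prdm1, which encodes the repressor BLIMP1, measured 7.76, 7.64, 7.70, 7.48, 7.63 and 7.57 in the controls and 8.22, 8.18 and 8.18 in the knockouts. Every knockout was above every control, as was so for 2.52% of all genes, and the change was 0.56 (SE 0.07, limma's adjusted p = 0.0059). Prdm1 is also a plasma cell gene, and the plasma cell genes Jchain (1.89) and Tent5c (0.53) rose in the same samples; their part in the Prdm1 values was not tested. Maf, a factor of macrophages, rose by 0.66 (SE 0.13, limma's adjusted p = 0.048), with means of 6.42 ± 0.23 (SD, n = 6) in controls and 7.09 ± 0.14 (SD, n = 3) in knockouts, while its dimmer probe differed by 0.48. The highest control for Maf was control 2 (6.79), which also led the controls in red pulp macrophage markers. The part of these cells in the Maf values was not tested. The count of 2 became 1 without any 1 of control replicates 1, 3, 4, 5 and 6 or of the 3 knockouts. Csf2rb (0.37), Etv3 (0.38) and Csf1r (0.37), named after their values were seen, did not pass, with limma's adjusted p of 0.053, 0.059 and 0.097.

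None of 31 measured relatives of the 10 factors by gene family passed, and their median change was 0.032. At an unadjusted p under 0.05 there were 7 with a higher and 2 with a lower mean in the knockout, where 14.3% of all genes had such a p and 5.5% had it with a higher mean. Klf6 differed by 0.44 (limma's adjusted p = 0.080) and Klf10 by 0.37 (limma's adjusted p = 0.086). In both, every knockout was above every control, as was so for 2.52% of all genes. Klf2 differed by 0.38 and Klf9 by 0.25, with overlapping groups in Klf2 and in Klf9. Klf7 differed by -0.31, with a second probe at -0.067. Spic, the red pulp macrophage relative of PU.1, differed by 0.71 and its control values ran from 8.67 to 9.59. The others were Zbtb16 (0.34), Id3 (0.19), an inhibitor related to ID2, and Dbp (-0.17), a circadian relative of NFIL3. The number past the threshold was 2 without knockout 3, 1 without control 2, 2 with array weights, 2 among genes at or above the median signal and 1 after a second quantile normalization.

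Genes reported to depend on the factors moved in both directions in the cDC2 list and not past the threshold in the cDC1 list. Of 24 genes linked to Irf4, Klf4 and the cDC2 branch, 5 rose and 2 fell, with a median of 0.0082 (0.415% of all genes rose and 0.491% fell). As the list was chosen with earlier results of these data known, the count does not test the branch. The means of the monocyte list (0.29, 0.36 and 0.49 above the control mean in knockouts 1 to 3) and of the plasma cell list (0.42, 0.48 and 0.59) were also higher in every knockout than in every control, and their part in this count was not tested. The 5 were Ccl17 (0.97, SE 0.09, limma's adjusted p = 0.0024) and Ccl22 (0.45, SE 0.07), both ligands of CCR4, the lectin receptors Clec4a3 (0.56) and Cd209a (0.54), and Mgl2 (0.90), a lectin of migratory cDC2. Cd209a had a second probe at -0.63. The 2 that fell were Dtx1 (-0.46, SE 0.07, limma's adjusted p = 0.019), a regulator and target of Notch signalling, and Ltb (-0.40), the lymphotoxin β gene. Dtx1 was 9.94 to 10.11 in the controls and 9.63, 9.42 and 9.61 in the knockouts, and its dimmer probe differed by -0.45. Cd209a, Mgl2 and Ltb were named after their values were seen. The count of 7 was 1 without knockout 2, 2 without control 1, 3 without any 1 of controls 2 to 6, 5 without knockout 1 and 6 without knockout 3. With only controls 1 to 3 it was 0, and with only controls 4 to 6 it was 1. With array weights it was 11, and among genes at or above the median signal it was 9.

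Of 23 measured genes that depend on Batf3 and Irf8, none passed limma's adjusted test (at an unadjusted p under 0.05, 1 was higher and 2 lower, against 14.3% of all genes), the median change was -0.020, and 10 had a positive change. The smallest p-values were those of Itgae (CD103), at 0.51 (SE 0.18, limma's adjusted p = 0.22), and Cd8a, at -0.22 (SE 0.09, limma's adjusted p = 0.28). The groups overlapped in both. Of 20 core genes of conventional DCs, the class that Zbtb46 marks, none passed (at an unadjusted p under 0.05, 4 were higher and 3 lower, against 14.3% of all genes) and the median was 0.0060. Gpr82 differed by -0.37 (limma's adjusted p = 0.085) and Bcl11a, a factor needed by plasmacytoid DCs, by -0.28 (limma's adjusted p = 0.15). Without knockout 3 the count was 1.

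**Figure D4:**
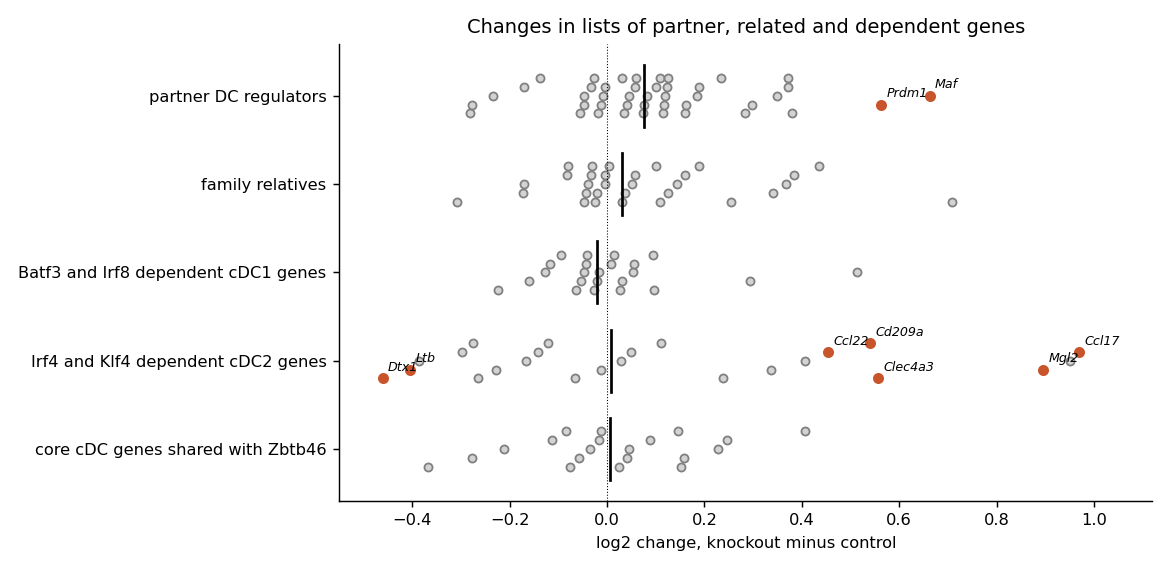
Log2 change (knockout minus control) of every measured gene in 5 lists; orange genes passed limma's adjusted p of 0.05 over all genes, grey ones did not, offsets within a row only separate the points, and black lines are list medians. Orange genes lie on both sides of 0 in the cDC2 list alone, with Ccl17 at 0.97 and Dtx1 at -0.46.

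For the 3 factors with the largest SD over the 9 arrays, the genes with the nearest pattern were found by the root mean square difference of mean-centred log2 values among 10299 genes, those at or above the median signal less predicted genes, RIKEN clones and small RNAs. Nearest to Nfil3 were Scin, an actin-severing protein (0.078), Impact, a translational regulator (0.11), and Il1rn, the interleukin-1 receptor antagonist (0.12), against a median of 0.41 over the genes compared. Each had its highest values in knockouts 1 and 2, as Nfil3 did: Scin was 7.16 to 7.63 in the controls and 8.16, 8.15 and 7.50 in the knockouts. Nearest to Klf4 were Snhg15, a long noncoding RNA (0.079), Insig1, a brake on sterol synthesis (0.087), and Slc3a2, the CD98 heavy chain (0.094), against a median of 0.27. Nearest to Irf4 were Cd274, the gene of the inhibitory ligand PD-L1 (0.055), Errfi1, a feedback inhibitor of growth factor receptors (0.069), and Maff, a small MAF factor (0.071), against a median of 0.24. Cd274 was 10.57 in knockouts 1 and 2 and 10.10 in knockout 3, and Irf4 too was lowest of the knockouts in knockout 3. The genes were picked for likeness over these same 9 arrays. Shared high and low samples, and distances under the median, therefore follow from the choice. The 9 arrays include both groups, so that likeness here includes the difference between them.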

How the data were processed

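Total RNA of sorted splenic DCs was labelled with a whole-transcript kit and read on single-colour arrays, per the labels' protocols. The authors deposited log2 intensities processed with RMA, according to the submitters' processing notes, with an RMA version and genome build not given in the sources used here. That the scale is log2 was inferred from the range of the values. Of 41801 rows, 34468 had a value in every sample, and 23521 of these had 1 gene symbol in the platform's annotation. The brightest probe represented each of 22180 genes. Knockout (3) and control (6) were compared over all genes with limma 3.58.1 (lmFit, eBayes, two-sided, R 4.3.3) and Benjamini-Hochberg adjustment; every adjusted p is from this test. The number of arrays limits the precision. The labels do not say whether shared replicate numbers pair the samples, which were compared unpaired. For shared numbers 1 to 3, deviations from the group means correlated at -0.14, -0.10 and 0.047. These 3 values cannot decide whether the samples are paired, as unlike numbers were not compared. Named genes are the 10 factors, Cebpb, the genes with the smallest p of each list (all past 0.05 up to 4, at least 2), family relatives at an unadjusted p under 0.05, and the nearest patterns; others are marked. The members and lists were chosen with earlier results of these data known. Scripts were tested on simulated data, and figures drawn with matplotlib 3.10.9.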

Additional observations from a re-analysis of the deposited data

Results flagged for a closer look

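In 25 sets of 6 control values (the 9 factors, Cebpb and the means of 15 lists), 2 had a sample far from the others by Dixon's ratio of gap to range, and chance gives about 1 in 20. For Batf3, control 4 at 9.43 was the highest, and the next was 9.23 (ratio 0.63). For Id2, control 3 at 12.00 was the lowest, and the next was 12.14 (ratio 0.71).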

How the results depend on the processing

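Of the 9 factors, Irf4, Id2, Zbtb46, Klf4, Ikzf1 and Nfil3 kept their direction under all 19 alternatives. The number of factors past 0.05 was 0, or 1 (Nfil3) with array weights (0.76, adjusted p = 0.016), with genes at or above the median signal (0.63, adjusted p = 0.039) and without knockout replicate 3; leaving out each sample in turn it ran from 0 to 1. Leaving out 1 sample, the change ran from 0.51 to 0.85 for Nfil3, -0.11 to 0.013 for Irf8 and -0.19 to 0.0023 for Batf3 (both positive without knockout 1), and -0.11 to 0.064 for Spi1 (positive without knockout 2), which was 0.035 with only controls 4 to 6. The cause of these turns was not tested. Over all genes, 201 passed; the number was 652 with array weights, 3 with only controls 1 to 3, 20 with only controls 4 to 6, 537 among genes at or above the median signal, 83 at a minimum change of 1.5-fold, and 33 to 332 without 1 sample. The replicate block left 2. Genes of the 15 lists past 0.05 numbered 13; they were 30 with array weights, 0 with the replicate block, 0 with only controls 1 to 3, 2 with only controls 4 to 6, 25 among genes at or above the median signal, 6 at a minimum change of 1.5-fold and 4 to 11 without 1 sample. With the replicate block no factor passed (Nfil3 0.49, adjusted p = 0.45), and the labels do not say that the numbers pair samples. Centring, a second quantile normalization, robust fitting and the treatment of probes changed no call of a factor.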

Other observations

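The 2 probes left out of the comparison because their annotation names Zeb2 beside another gene gave the following values, which are not assigned to any of these genes. Probe 17384951 (Zeb2 and Mir5129) measured 8.16, 8.16, 8.05, 7.93, 8.08 and 8.03 in controls 1 to 6 and 8.30, 8.32 and 8.64 in knockouts 1 to 3, so that each knockout was above every control, as in 2.52% of all genes tested. Probe 17370575 (Zeb2 and Zeb2os) measured 6.38, 6.22, 6.40, 6.25, 6.18 and 6.30 in the controls and 6.46, 6.31 and 6.53 in the knockouts, with overlapping groups. The mean differences were 0.35 and 0.14. Knockout 3, in which Nfil3 and Irf4 were lowest of the knockouts, was highest in both probes.

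Some factors had equal values in several controls at the rounding used here: Irf4 in controls 4, 5 and 6, Batf3 in controls 1, 2 and 6, Ikzf1 in controls 2, 3 and 6, and Id2 in controls 1 and 4.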
